A study of Arabidopsis thaliana with 7 samples.

Results

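The WRKY genes of Arabidopsis encode a plant family of transcription factors, and their occupancy by the light-signalling factor HY5 was compared here between blue and red light. The members were all protein-coding genes of the 5 chromosomes whose symbol is WRKY followed by a number, which gave 67 of 27444 genes. A HY5 peak was counted for a gene when its centre lay between 1500 bp outside and 500 bp inside either end of the gene, and 197 of 41276 peaks did so for a WRKY gene. The 5 WRKY loci that the gene table lists under another symbol (ZAP1, TTG2, RRS1, TTR1 and ABO3) were not members.

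WRKY proteins share a DNA-binding domain with the conserved amino acids that give the family its name, and they bind the W-box, a short element in the promoters of many defence genes, often including their own. They are grouped by the number of WRKY domains and the type of zinc finger: group I has a pair of WRKY domains, groups II and III have a single domain each with different zinc fingers, and group II falls into subgroups a to e. Members are best known in Arabidopsis for responses to bacteria and fungi and to salicylic acid, for leaf senescence, and for responses to abscisic acid and phosphate. HY5 (ELONGATED HYPOCOTYL 5), a transcription factor of the bZIP class, drives the seedling's switch to growth in light and binds elements with an ACGT core. A direct link between HY5 and the family is WRKY36, which represses transcription of HY5 and is bound by the UV-B photoreceptor UVR8.

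Chromatin immunoprecipitation with sequencing was done on whole Arabidopsis plants of the Wassilevskija accession that carried the hy5-ks50 T-DNA insertion and expressed a fusion of HY5 with yellow fluorescent protein (HY5-YFP). Plants 10 days old, entrained to cycles of light and dark, were fixed after 52 hours in blue (n = 3) or red light (n = 3) of the same fluence rate of 15 µmol per square metre and second. All groups carried the mutation and the fusion, and no source used here gives the promoter of the fusion, so values refer to the fusion protein of this line. A single mock library, precipitated with beads lacking the antibody, was made from the pooled blue light replicates and served as control for the peaks of both lights. In whole plants, fewer cells with HY5 bound at a gene and less HY5 bound per cell cannot be told apart.

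Sequenced depth was 7.99 to 11.7 M tags (1 M is 1e6) in blue and 10.6 to 11.9 M tags in red light. The peak lists held 8524 to 8888 peaks in blue light, against 4027, 5672 and 5441 in red light replicates 1, 2 and 3. Red light replicate 1 stood apart: its estimated fragment length was 548 bp where the other libraries had 188 to 226 bp, and its tags were summed over windows of 549 bp, against 306 to 348 bp. At sites called in all 6 libraries its median was 319 tags per 10 M tags of the library, against 220.1 and 219.6 in red light replicates 2 and 3 and 352 to 363 in blue light. Where leaving it out changes a call at a site, or moves a called fold by over 1.5 times, the value without it is given beside the site, and the part of the window width in them was not tested. In that setting 4525 of all 4615 sites tested were higher in blue light (limma adjusted p under 0.05). A blue light call in that setting therefore sets no site apart.

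HY5-YFP peaks lay at 40 of the 67 WRKY genes (59.7%) in at least 1 library, against 49.5% of all protein-coding genes. In blue light 32 WRKY genes (47.8%) had a peak in at least 2 of the 3 libraries, against 43.4% of all genes, and in red light 22 did (32.8%), against 26.5%. Of the 32 genes with such a blue light peak, 21 (65.6%) also had a red light one, against 60.6% of all genes. A peak in every one of the 6 libraries was found at 18 WRKY genes (26.9%), against 19.4% of all genes. These shares describe a chosen family with no test, and their distance from the shares of all genes is not read as a result about the family.

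By library, 33 WRKY genes had a peak in each of the 3 blue light libraries, and 18, 27 and 24 had one in red light replicates 1, 2 and 3. The corresponding shares were 49.3% in each blue light library and 26.9%, 40.3% and 35.8% in the red light ones, where all protein-coding genes had shares of 43.7%, 42.8% and 44.1% in blue light and 21.9%, 29.2% and 28.1% in red. The WRKY share was above that of all genes in each of the 6 libraries, and both shares were lowest in red light replicate 1.

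**Figure D1:**
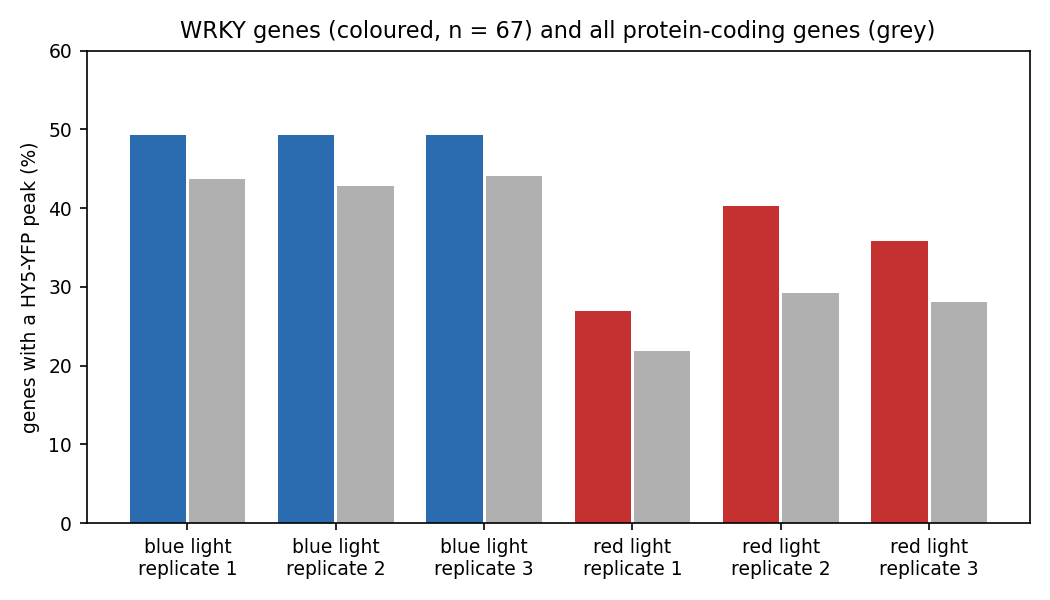
Share of genes with a HY5-YFP peak (percent, vertical axis) in each of the 6 libraries, with the 67 WRKY genes as coloured bars and all 27444 protein-coding genes as grey bars. WRKY bars stand at 49.3% in blue light and between 26.9% and 40.3% in red light, each above the grey bar beside it.

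Occupied members were spread over the groups, which were assigned from textbook knowledge because protein sequences were not used. The shares of all genes to set beside these counts are 49.5% with a peak in any library and 19.4% with one in all 6. Group I had peaks at 7 of 11 genes (63.6%), with 6 (54.5%) occupied in all 6 libraries, WRKY2, WRKY3, WRKY4, WRKY20, WRKY32 and WRKY33, and WRKY25 in blue light alone. Group III had peaks at 8 of 12 genes (66.7%), and WRKY41, WRKY53 and WRKY54 (25.0%) were called in all 6 libraries. Group II had peaks at 25 of 43 genes (58.1%) and calls in all 6 libraries at 9 (20.9%), the latter near the share of all genes. The groups are small and no test was made between them.

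Within group II, subgroup d, whose members carry a calmodulin-binding stretch, had a peak at all 7 genes, with WRKY11, WRKY21 and WRKY39 (42.9%) called in all 6 libraries. Subgroup e had peaks at 2 of 7 genes (28.6%), WRKY27 and WRKY35, both called throughout. Its members WRKY65 and WRKY69 had a peak in all 6 libraries that lay too deep inside the gene for the window. Subgroup b had peaks at 6 of 8 genes (75%) and subgroup c at 8 of 18 (44.4%), where all genes had 49.5%. In subgroup a, the related repressors of basal defence, WRKY40 had peaks in 4 libraries, WRKY60 in 1, and WRKY18 had none in its window. WRKY19, which fuses a WRKY domain to other domains, was placed in no group and had no peak.

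By role, peaks lay at 17 of 23 genes of the defence list, 6 of 8 of the senescence list, 4 of 5 of the list for abscisic acid and germination, 3 of 4 of the list for phosphate and roots and 1 of 6 of the development list. These are shares of 73.9%, 75%, 80.0%, 75% and 16.7%, where all genes had 49.5%. In the same order, 6, 2, 2, 0 and 0 of the genes were called in all 6 libraries. For the defence and senescence lists that is 26.1% and 25.0%, beside the 19.4% of all genes and the 26.9% of the family. The single gene of the development list with a peak was WRKY71, a regulator of shoot branching. Genes can belong to more than 1 role list, and no test was made between lists. The lists do not hold every member with such a role, and the shares depend on that choice. TTG2 (WRKY44), planned for the development list, and ABO3, planned for the abscisic acid list, fell out through their symbols. TTG2 had peaks in 3 blue and 2 red light libraries, and ABO3 in 1 blue light library. WRKY2, known also in pollen development, is not in the development list, and WRKY3, WRKY4 and WRKY27 are not in the defence list.

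The tags at the WRKY sites called in all 6 libraries give the level of occupancy in each library. Of the 50 sites joined at the family, 20 were called in all 6 libraries, against 34.8% of all 10233 sites. The site next to WRKY7 among them had its centre inside the gene's window in only 1 library and is left out, which leaves 19 sites at 18 genes, since WRKY36 had 2. Values are tags in the peak window per 10 M tags of the library, as the authors scaled them. Over these 19 sites the median level was 328 tags in blue light and 248 in red, where all 3557 shared sites had medians of 359 and 252. The median enrichment over the mock at WRKY sites was 11.1-fold in blue light and 8.25-fold in red, where all shared sites had 11.4-fold and 7.62-fold.

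The highest blue light levels were at WRKY33, a regulator of the phytoalexin camalexin and of resistance to necrotrophic fungi. Its site (TAIR10, chr2:16106684-16107232) had 849, 831 and 945 tags under blue light (replicates 1, 2 and 3), against 784, 518 and 496 under red. All blue light values were above all red light values. The site lay between genes, also within the windows of AT2G38465 and IREG1, and its mean blue light level stood at percentile 92.0 of all shared sites. On the log2(tags + 1) scale it was higher in blue light by 0.57 (SE 0.21, limma adjusted p = 0.0253).

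The other group I members followed at lower levels. WRKY4, which acts with WRKY3 in resistance to necrotrophic fungi, had 616, 704 and 609 tags under blue light, against 535, 357 and 298 under red at a site (chr1:4775395-4775943) that also lay in the window of ELF5A-1. WRKY2, known in seed germination and pollen development, had 467, 475 and 455 tags under blue light, against 429.7, 261 and 269 under red at a site inside the gene. At both genes the lights did not overlap, and red light replicate 1 was the red value nearest to blue light. The log2 fold was 0.74 at WRKY4 (SE 0.21, limma adjusted p = 0.00571) and 0.58 at WRKY2 (SE 0.21, limma adjusted p = 0.0223).

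At WRKY20 there were 396, 429 and 362 tags under blue light, against 408, 253 and 224 under red, and at WRKY3 332, 295 and 290.3 tags under blue light, against 292, 189 and 188 under red. WRKY32 had 236, 232 and 282 tags under blue light, against 232, 154 and 161 under red. At WRKY20 and WRKY3 red light replicate 1 lay among the blue light values, and at WRKY32 it lay just below them. The log2 folds were 0.47 at WRKY20 (limma adjusted p = 0.0499), 0.48 at WRKY3 (0.0467) and 0.47 at WRKY32 (0.0524), so 2 of these passed the threshold of 0.05 narrowly and WRKY32 missed it. With red light replicate 1 left out, the fold was 0.73 at WRKY20 (limma adjusted p = 1.25e-12), and WRKY32 passed with 0.66 (limma adjusted p = 1.68e-08).

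WRKY41, a group III gene known in seed dormancy through ABI3, was the member with the highest red light level. Its site (chr4:6760345-6760893) had its centre where the ends of WRKY41 and its neighbour 3xHMG-box1 overlap, so it lay inside both genes. It had 770.4, 842 and 781 tags in blue light and 1527, 924 and 835 in red light replicates 1, 2 and 3. Red light replicate 3 lay below the highest blue light value, so the lights overlapped, and red light replicate 1 held the highest value at any WRKY site.

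The other group III sites had more tags in blue light on average. WRKY53, a regulator of the onset of leaf senescence, had 353, 297 and 334 tags under blue light, against 256, 203 and 224 under red at a site (chr4:12392478-12393026) inside the gene that also lay in the window of 3xHMG-box2. The lights did not overlap there and the log2 fold was 0.53 (SE 0.21, limma adjusted p = 0.0325). WRKY54, which acts with WRKY70 in salicylic acid responses and senescence, had the lowest levels of the 19 sites. It had 152, 179 and 140.1 tags under blue light, against 166, 84.9 and 103 under red, with overlap and a log2 fold of 0.46 (SE 0.23, limma adjusted p = 0.0719). The fold at WRKY54 without red light replicate 1 was 0.74 and passed (limma adjusted p = 1.21e-07).

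Among the calmodulin-binding members of subgroup d, WRKY39, known in heat responses, had a level close to that of WRKY33. Its site (chr3:1268831-1269379) lay between genes and in the window of CLPS3. There were 796, 811 and 798 tags under blue light, against 628, 475 and 498 under red, with no overlap and a log2 fold of 0.60 (SE 0.21, limma adjusted p = 0.0209). Its enrichment over the mock was the strongest of the 19 sites, at 36.6-fold under blue light, against 25.3-fold under red.

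WRKY11, a negative regulator of basal resistance to bacteria, had 353, 306 and 350.3 tags under blue light, against 345, 211 and 189 under red, so red light replicate 1 lay among the blue light values. WRKY21 had 256, 248 and 232 tags under blue light, against 192, 193 and 149.8 under red, and the lights did not overlap. It was the single WRKY site of the 19 where red light replicate 1 was not the highest red value. The log2 folds were 0.48 (limma adjusted p = 0.0455) at WRKY11 and 0.47 (limma adjusted p = 0.0555) at WRKY21, which missed the threshold. In the other 5 libraries, without red light replicate 1, they were 0.75 at WRKY11 (limma adjusted p = 5.96e-12) and 0.52 at WRKY21 (limma adjusted p = 4.21e-06), so WRKY21 then passed.

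WRKY36, the gene that acts upstream of HY5, had a site on either side. The site at chr1:26279812-26280360 had 437, 439 and 438 tags under blue light, against 387, 318 and 331 under red, and the site at chr1:26276030-26276578, inside the neighbouring gene AT1G69800, had 333, 311 and 310.3 tags under blue light, against 306, 246 and 218 under red. The lights did not overlap at either site. The log2 folds were 0.35 (limma adjusted p = 0.125) and 0.32 (limma adjusted p = 0.153), so neither passed the test in the 6 libraries. Both passed toward blue light without red light replicate 1, with 0.43 (limma adjusted p = 8.01e-07) and 0.45 (limma adjusted p = 5.65e-06), as did 4525 of all 4615 sites tested. With each of these libraries centred on its median over those sites, the log2 folds were −0.26 (limma adjusted p = 0.0162) and −0.23 (limma adjusted p = 0.064).

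WRKY47, also of subgroup b, had 328, 296 and 307 tags under blue light, against 248, 180.3 and 192 under red at its shared site, with a log2 fold of 0.59 (SE 0.21, limma adjusted p = 0.0203). A second WRKY47 site (chr4:748932-749480) had 152, 139 and 156 tags in blue light and 179 in red light replicate 1, with no peak in the other red light libraries. The lights did not overlap at the shared site.

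In subgroup c, WRKY8, a defence regulator, had 309.9, 313 and 314 tags under blue light, against 225, 157 and 151 under red. WRKY28, which activates salicylic acid synthesis, had 379, 373 and 424 tags under blue light, against 416, 279 and 257 under red. The lights were far apart at WRKY8 and overlapped at WRKY28 through red light replicate 1. The log2 fold was 0.83 at WRKY8 (SE 0.21, limma adjusted p = 0.00186) and 0.34 at WRKY28 (SE 0.21, limma adjusted p = 0.136). WRKY28 passed without red light replicate 1 with 0.55 (limma adjusted p = 1.15e-08).

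In subgroup e, WRKY27, known for its effect on bacterial wilt, had 228, 228 and 283 tags under blue light, against 162, 119 and 128 under red at a site inside the gene. WRKY35 had 192, 222 and 220.2 tags under blue light, against 152, 122 and 116 under red. Neither site overlapped between lights. The log2 fold of 0.86 at WRKY27 (SE 0.22, limma adjusted p = 0.0019) was the highest of the 19 sites, and that of WRKY35 was 0.70 (SE 0.22, limma adjusted p = 0.0113).

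**Figure D2:**
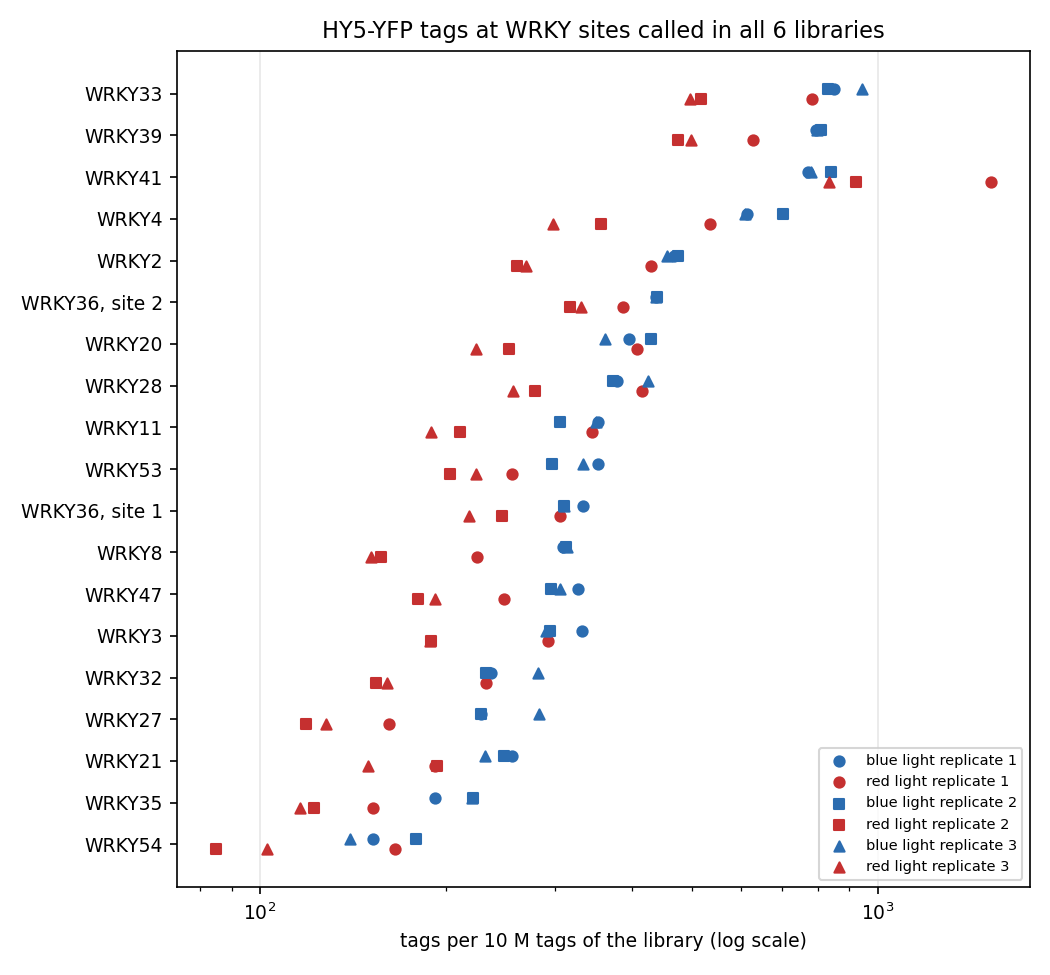
Tags per 10 M tags of the library (horizontal log axis) at the 19 WRKY sites called in all 6 libraries, 1 point per library with blue light in blue and red light in red. Blue light points lie to the right of the red light points at 13 sites, and at WRKY41 red light replicate 1 lies far to the right at 1527 tags.

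Over the 19 sites, 12 were higher in blue light (63.2%) and 0 higher in red light by limma, against 51.9% and 0.0281% of all 3557 shared sites. At an unadjusted p under 0.05 the count higher in red light was also 0. All blue light libraries were above all red light ones at 13 WRKY sites, against 59.4% of shared sites, and the reverse held at 0, against 0.169%. The median log2 fold was 0.48 both at WRKY sites and at all shared sites. The difference between lights at WRKY sites was thus no result about the family: its median and that of all shared sites agree to 2 decimals.

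The number of calls depended on single libraries. Without red light replicate 1, 21 of the 22 WRKY sites called in the other 5 libraries were higher in blue light and 1, WRKY41, was higher in red light. Of all 4615 sites called in those libraries, 4525 were higher in blue light and 6 in red light. Without any other single library, 0 to 2 WRKY sites passed toward blue light, namely 1, 1 and 0 without blue light replicates 1, 2 and 3 and 2 without either of red light replicates 2 and 3. Over all sites, 140 to 149 of 3560 to 3562 passed toward blue light without a blue light replicate. Without red light replicates 2 and 3, 220 of 3670 and 214 of 3705 sites did. Red light replicate 1 was the highest red value at 18 of the 19 sites, with a median of 1.47 times the mean of the other red light libraries, against 1.45 times at all shared sites. The median coefficient of variation over replicates was 7.14% in blue and 23.7% in red light at the WRKY sites, against 5.38% and 23.1% at all shared sites.

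**Figure D3:**
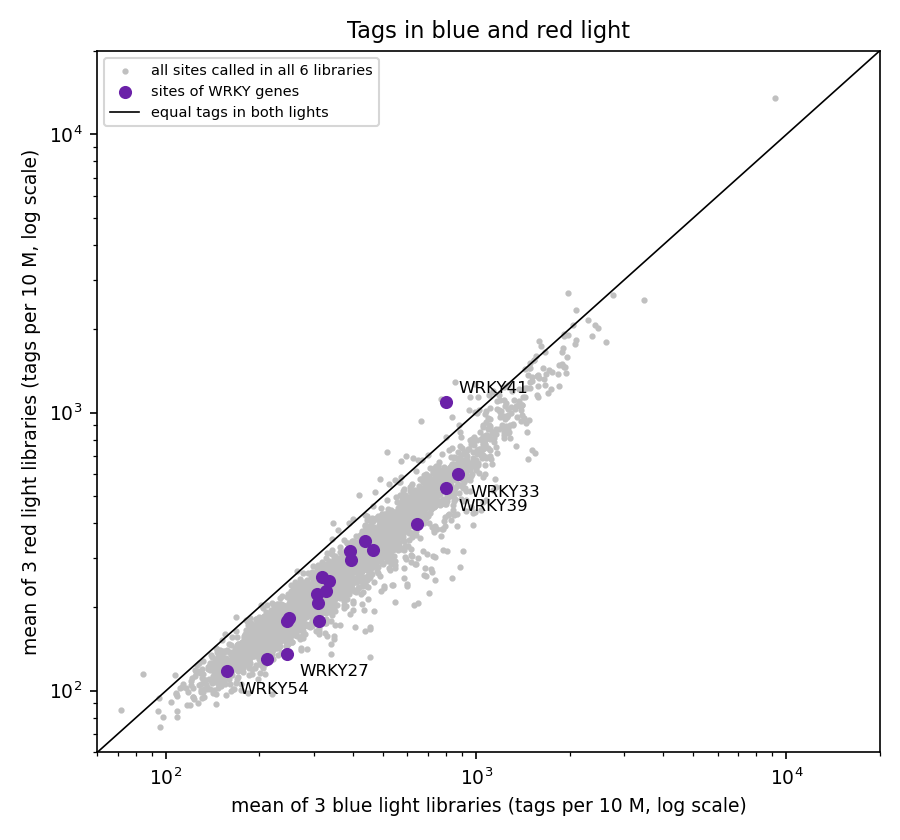
Mean tags per 10 M of the 3 blue light libraries (horizontal log axis) against the mean of the 3 red light libraries (vertical log axis), with all 3557 shared sites in grey, the 19 WRKY sites in purple and a line of equal tags. Of the WRKY sites, WRKY41 lies above the line, at 798 tags in blue light and 1095 in red, and the other 18 lie below it.

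Because nearly all sites had more tags in blue light, each library was also centred on its median over the shared sites. This shifts the log2 fold of every shared site by the same amount and keeps their order. A centred fold is relative to the library medians, and the fold of the typical shared site was itself slightly negative. On this scale 2 WRKY sites lay toward blue light and 1 toward red light, against 7.96% and 11.8% of all shared sites. The median centred log2 fold was −0.04 at WRKY sites and at all shared sites, which restates the equal medians before centring. The sign of 9 of the 19 sites turned with the centring, as it must for any positive fold smaller than the shift. Their centred folds lay between −0.21 and −0.04, at percentiles from 16.1 (a site of WRKY36) to 50.2 (WRKY11) of all shared sites. A turned sign alone thus sets no site apart.

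The site toward red light was WRKY41. Its mean was 798 ± 38.5 tags under blue light, against 1095 ± 377 under red (SD, n = 3), a log2 fold of −0.41 that did not pass the test (SE 0.22, limma adjusted p = 0.0902). Relative to the library medians its log2 fold was −0.93 (SE 0.07, limma adjusted p = 5.12e-14). It ranked 7 of 3557 from the red end, a rank that centring cannot change, as it shifts the folds of all shared sites alike.

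Without red light replicate 1 the log2 fold at WRKY41 was −0.14 (limma adjusted p = 0.0265), and −0.83 relative to the medians (limma adjusted p = 8.26e-23). Over the 14 alternative settings its log2 fold ran from −0.93 to −0.14 and the limma adjusted p from 1.65e-24 to 0.266. The mean of the blue light libraries was 0.907 times that of red light replicates 2 and 3, and a ratio under 1 was found at 10 of 3557 shared sites (0.281%), of which WRKY41 was the sole WRKY site. As the site lies in both WRKY41 and 3xHMG-box1, the tags cannot be assigned to either gene. The mock held 47.7 tags there in the blue light windows, against a median of 19.7 over the WRKY sites. These mock numbers are not on the scale of the peak tags, and 4-fold over the mock corresponded to 279 tags per 10 M at this site. Enrichment over the mock was 11.5-fold under blue light, against 16.1-fold under red. The part of the mock level in the result was not tested.

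The sites toward blue light relative to the medians were WRKY27 and WRKY8. Their centred log2 folds were 0.33 (limma adjusted p = 0.0262) and 0.31 (limma adjusted p = 0.0166), with mean levels of 246 ± 31.6 against 136 ± 22.6 tags at WRKY27 and 312 ± 2.12 against 178 ± 40.8 tags at WRKY8 (SD, n = 3 per light). Without red light replicate 1 both passed again, with 0.30 (limma adjusted p = 0.0472) and 0.32 (limma adjusted p = 0.0121). WRKY4 then passed too, with 0.29 (limma adjusted p = 0.00394) after 0.21 (limma adjusted p = 0.0567) in all 6 libraries. Over the alternative settings the limma adjusted p ran up to 0.0957 at WRKY27, 0.0647 at WRKY8 and 0.119 at WRKY4, with a log2 fold toward blue light in every one. The WRKY36 site at 26279812 then passed toward red light, with −0.26 (limma adjusted p = 0.0162) after −0.18 (limma adjusted p = 0.117), while its deposited tags stayed higher in blue light. Over all sites called in these 5 libraries, 8.49% then passed toward blue and 10.7% toward red light.

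**Figure D4:**
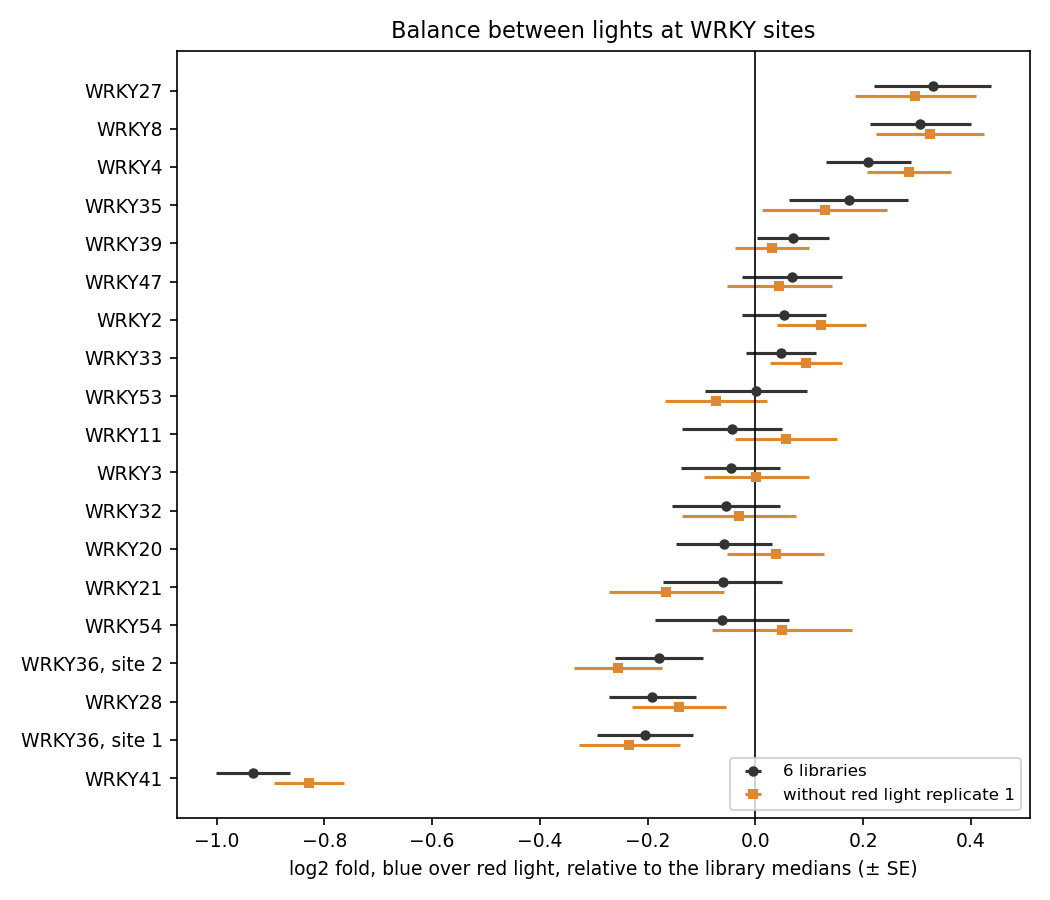
Log2 fold of blue over red light relative to the library medians (horizontal axis, points with SE) at the 19 WRKY sites, for all 6 libraries and without red light replicate 1. WRKY41 stands alone at −0.93 and −0.83, WRKY27 and WRKY8 lie farthest toward blue light at 0.33 and 0.31, and all others lie between −0.21 and 0.21 in the 6 libraries.

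A further set of WRKY genes carried peaks in blue light alone. WRKY46, WRKY48, WRKY25 and WRKY71 had a peak in all 3 blue and no red light library, which is 5.97% of the members against 7.25% of all genes. With the lists cut to the same length of 4027 peaks, the count of such genes fell from 4 to 0. Peaks in all 3 red and no blue light library were found at no WRKY gene, against 0.00364% of all genes. The peak lists give tag numbers at peaks alone, so a level for red light cannot be given here and a level just under the caller's threshold cannot be told from none.

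WRKY46, which acts with WRKY53 and WRKY70 in defence, had 162, 147 and 139 tags in blue light, and WRKY48, a negative regulator of basal defence, had 139, 158 and 165. WRKY25, known in heat and salt responses, had 133, 137 and 144 tags, and WRKY71 had 67.6, 75.2 and 85.1. All 4 sites were low beside the median of 328 tags at the shared WRKY sites. At the mock level of their windows, a peak needed 125 tags at WRKY46, 117 at WRKY48, 123 at WRKY25 and 39 at WRKY71 to be 4-fold over the mock. In blue light the first 3 exceeded that bar by 1.12 to 1.32 times and WRKY71 by 1.95 times. The caller also required 4-fold over 10000 bp of surroundings. Over these, blue light enrichment was 5.69-fold at WRKY46, 4.71-fold at WRKY48, 5.85-fold at WRKY25 and 5.17-fold at WRKY71.

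Another 5 sites called in 3 blue and 0 red light libraries lay at genes with a further site that was also called in red light. In blue light replicates 1, 2 and 3 there were 249, 256 and 214 tags at WRKY61, 217, 230.4 and 220.2 at WRKY57 and 183, 182 and 224 at WRKY15. WRKY21 had 132, 125 and 114 tags at such a site and WRKY20 had 114, 104 and 75.1. The first 3 of these sites were thus higher than those of the 4 genes without any red light peak. Such sites were 9 of the 50 sites of the family, against 14.9% of all 10233 sites. The WRKY21 site stood out by its low mock of 3.67 tags, with blue light tags 5.76 times the mock bar of 21.4 tags. A peak also had to be 4-fold over 10000 bp of surroundings, and in blue light this site was 4.61-fold over them, close to that bar. Over the 9 sites the median was 1.67 times the mock bar, against 1.43 times over all 1521 such sites.

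**Figure D5:**
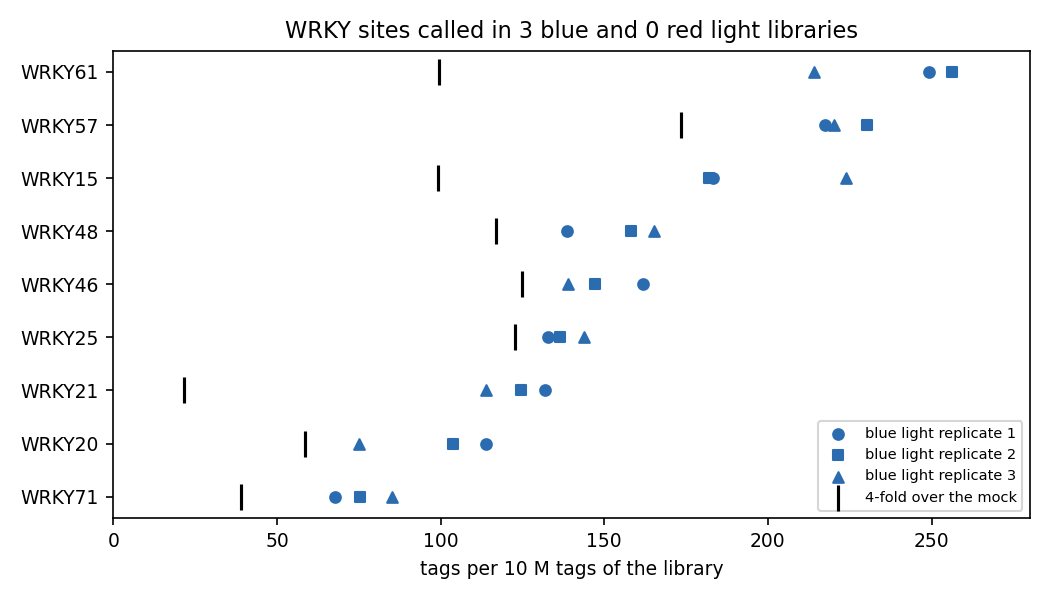
Tags per 10 M tags of the library in the 3 blue light libraries (points, horizontal axis) at the 9 WRKY sites called in 3 blue and 0 red light libraries, with the level that is 4-fold over the mock as a vertical tick. Blue light points lie closest to the tick at WRKY25, WRKY46, WRKY57 and WRKY48, and farthest above it, as a multiple, at WRKY21.

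The other members with peaks were called in part of the libraries. WRKY57, WRKY61 and WRKY51 had peaks in 3 blue and 2 red light libraries, red light replicate 1 being the one without. WRKY40, WRKY15 and WRKY72 had them in 3 blue and 1 red light library. The best site of WRKY57, a regulator of jasmonate-induced senescence, had 254, 250.2 and 238 tags under blue light, against 188 and 181 in red light replicates 2 and 3. WRKY40 had 215, 217 and 214 tags in blue light and 145 in red light replicate 2.

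Peaks of the remaining members were fewer and mostly lower. WRKY6 and WRKY17 were called in 2 blue and 1 red light library with 103 to 175 tags, and WRKY45 in 1 of each with 162 and 120.5 tags. WRKY70 and WRKY50 were called in 2 blue light libraries alone, with 161 and 141 tags and with 74.5 and 80.1 tags. WRKY55, WRKY42, WRKY67, WRKY60 and WRKY62 had a peak in 1 blue light library each, with 51.4 to 104 tags, and WRKY74 in red light replicate 2 with 65 tags. WRKY7 was counted in 1 blue and 2 red light libraries through a site inside the gene with 248 tags in blue light replicate 3 and 175 and 189 in red light replicates 2 and 3.

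No peak lay in the windows of 27 members: WRKY9, WRKY10, WRKY12, WRKY13, WRKY14, WRKY18, WRKY19, WRKY22, WRKY23, WRKY24, WRKY26, WRKY29, WRKY30, WRKY31, WRKY34, WRKY38, WRKY43, WRKY49, WRKY56, WRKY58, WRKY59, WRKY64, WRKY65, WRKY66, WRKY68, WRKY69 and WRKY75. They include WRKY22 and WRKY29, which act below the flagellin receptor, and WRKY12, WRKY13 and WRKY23, regulators of stem and root development. WRKY65 and WRKY69 of subgroup e nevertheless had a peak inside the gene, more than 500 bp from both ends, in all 6 libraries, with 342 ± 4.9 and 350.0 ± 28.4 tags under blue light, against 222 ± 69.7 and 245 ± 81.3 under red (SD, n = 3). A peak centred up to 3000 bp outside was called in all 6 libraries at WRKY9, WRKY22 and WRKY59, and for WRKY9 and WRKY22 another gene was nearer.

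The positions of the 19 shared WRKY sites are given beside those of all shared sites. The centre lay inside a protein-coding gene at 7 of them (36.8%), against 42.1% of all shared sites, and in 5 cases it was the WRKY gene itself (WRKY2, WRKY11, WRKY27, WRKY41 and WRKY53). Windows of another gene also held 11 of the 19 (57.9%), against 62.2% of the shared sites in the window of any gene. The remaining 8 sites lay in the window of a single gene, so their assignment to WRKY2, WRKY8, WRKY11, WRKY28, WRKY35, WRKY36, WRKY47 and WRKY54 had no rival by this rule. Levels above 500 tags in blue light were found at 4 of the 19 (WRKY33, WRKY39, WRKY41 and WRKY4; 21.1%), against 28.3% of shared sites.

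Genes that act with WRKY factors were examined as a list of their own. In this list of 22 kinases, interactors, defence regulators and target genes, 9 (40.9%) had a peak in any library, 7 (31.8%) in at least 2 blue and 5 (22.7%) in at least 2 red light libraries, and SIB1 (4.55%) in all 6. In the same order, all genes had shares of 49.5%, 43.4%, 26.5% and 19.4%. SIB1, which activates WRKY33 by direct contact, had 449, 459 and 434 tags under blue light, against 364, 221 and 284 under red. The lights did not overlap there, and the log2 fold was 0.66 (SE 0.21, limma adjusted p = 0.0117) and 0.13 relative to the medians (limma adjusted p = 0.312).

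SARD1, an activator of salicylic acid synthesis, had 331, 355 and 320.3 tags under blue light, against 194 and 195 in red light replicates 2 and 3. EDS1, a central regulator of basal and receptor-triggered immunity, had 253, 199 and 210.2 tags under blue light, against 147 and 123 in the same red light libraries. The kinase MPK6, which phosphorylates WRKY33, had 152, 143 and 158 tags under blue light, against 138 and 143 in them, and MPK3, its close relative, had 116, 126 and 143 in blue light alone. Red light replicate 1 had no peak at any of these 4 genes. MKS1, ACS6, NIMIN1 and EDS5 were called in 1 to 3 libraries, and the other 13 genes, NPR1, PAD4, ICS1, PAD3 and PR1 among them, had no peak in their windows.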

How the data were processed

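HY5-YFP ChIP-seq was deposited as 1 peak list per library, 3 for blue and 3 for red light. HOMER findPeaks was run by the authors in factor style with the mock as control, per the file headers. A peak had to exceed both the mock and 10000 bp of surroundings 4-fold, with a Poisson p-value of 0.0001 and a false discovery rate of 0.001. The submitters' processing notes name HOMER 4.9 and TAIR10. No source used here names the aligner. The deposited signal counts the tags of a peak, which the authors scaled to 10 M per library, and the mock signal counts those of the mock in the same window. The mock signal is on another scale, so the enrichment is not the direct quotient of these numbers. The deposited ratio columns hold the authors' enrichment over each control. Peak windows follow the fragment length that was estimated for each library, so signals of libraries with unlike windows are not strictly comparable, and without molecular identifiers tags can include PCR copies.

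Overlapping peaks (by 1 bp or more) of the 6 lists were merged to sites with bedtools 2.31.1. Genes came from the RefSeq table of assembly TAIR10.1, used for names and for which gene lies nearest. It carries no strand, so start and end of a gene were not distinguished, and no sequence was used. Sites called in all 6 libraries were compared with limma 3.58.1 (lmFit and trended eBayes, R 4.3.3) on the log2 of the deposited signal plus 1, with Benjamini-Hochberg adjustment over all 3557 sites and a threshold of 0.05, after the code was tested on simulated data. Sites missing from a library do not enter this test. The mean is given ± SD over 3 biological replicates.

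The rule for named genes gives library values for every WRKY gene with a site called in all 6 libraries, or with peaks in 3 libraries of one light and none of the other, and summarises the other members. Library values at some of the latter were added after values were seen. The family, the role, subgroup and partner lists and the tests were chosen with earlier results of these data known, and groups I and III were listed after values were seen. Alternatives were other windows, nearest-gene assignment, an 8-fold bar over the mock, lists cut to 4027 peaks, centring, a pseudocount of 10, joining at 100 bp, sites called in at least 2 libraries of each light, a replicate block and leaving out each library. Added after seeing the data were centring without red light replicate 1 and counting peaks anywhere inside a gene.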

Additional observations from a re-analysis of the deposited data

How the results depend on the processing

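The counts of WRKY genes with peaks stayed within 1.5 times of the reported ones under the 1000 bp and 3000 bp windows, nearest-gene assignment and peaks inside the gene. With an 8-fold bar over the mock, 19 genes had a blue light peak in at least 2 libraries, 10 a red light one and 8 a peak in all 6, and with lists of equal length 18 had a blue light one and 0 had peaks in 3 blue and 0 red libraries. Leaving out 1 library gave 29 to 32 genes in blue light, 18 to 22 in red light, 18 to 21 in all remaining libraries and 4 to 6 in blue light alone. Centring left 2 WRKY sites higher in blue and 1 in red light, a median log2 fold of −0.043, and 283 and 421 of all shared sites. Centring without red light replicate 1 gave 3 and 2 WRKY sites, a median of 0.017, and 392 and 494 sites. The 8-fold bar left 4 WRKY sites and 533 of all sites higher in blue light, with fewer sites tested. With sites called in at least 2 libraries of each light, 3373 passed toward blue and 3 toward red light, with more sites tested. Leaving out 1 library gave 0 to 21 WRKY sites higher in blue and 0 to 1 in red light, a median of 0.40 to 0.71, and 140 to 4525 and 0 to 6 of all sites. Pseudocount 10 and joining at 100 bp changed no call at the 19 sites.

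Reversed under centring, with the same values under centring with the replicate block, were WRKY11 (−0.043), WRKY20 (−0.059), WRKY21 (−0.061), WRKY28 (−0.19), WRKY3 (−0.046), WRKY32 (−0.054), WRKY36 (−0.21 and −0.18) and WRKY54 (−0.062). Without red light replicate 1 as well, they were WRKY21 (−0.17), WRKY28 (−0.14), WRKY32 (−0.031), WRKY36 (−0.23 and −0.26) and WRKY53 (−0.073). Centring subtracts the median of each library by construction, and no other cause was tested. In the 6 libraries the median centred fold over all shared sites was −0.04, so a negative sign there is no direction from the typical site.

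Whether the replicate numbers pair the samples was not established. Deviations of same-numbered libraries correlated by −0.04, −0.09 and 0.05 across sites, and those of unlike-numbered libraries by −0.09 to 0.12. With the replicate block, 1399 of all shared sites and 9 of the WRKY sites passed toward blue and 0 of all sites toward red light. Centring with the replicate block gave 3 and 1 WRKY sites, a median of −0.043, and 290 and 426 of all sites.

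A planned count test on whole tags was not run, because the step check on the deposited values did not establish whole reads. Depth is that of 7.99 to 11.9 M tags, and a site below the caller's threshold in a library has no value there.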

Other observations

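Of the WRKY loci listed under another symbol, ZAP1 (WRKY1) was called in all 6 libraries, with 203 ± 11.4 tags under blue light, against 152 ± 37.8 under red (SD, n = 3). TTG2 (WRKY44), a regulator of trichome and seed coat development, had 306, 296 and 319 tags under blue light, against 198 and 178 in red light replicates 2 and 3. RRS1 (WRKY52), an immune receptor with a WRKY domain, had 108, 104 and 97.6 tags in blue light alone. TTR1 was called in 2 blue light libraries and ABO3 in 1.

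At WRKY7 a stronger site (chr4:12569760-12570308) was called in all 6 libraries, with 589.8, 605 and 612 tags under blue light, against 431, 259 and 305 under red. The log2 fold at this site was 0.89 (SE 0.21, limma adjusted p = 0.000716), and 0.36 relative to the medians (limma adjusted p = 0.000354). Its centre fell inside the window of WRKY7 in red light replicate 2 alone and just beyond 1500 bp in the other 5 libraries, and the nearest gene was AT4G24231, so it was not counted among the 19 shared WRKY sites.

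Among members without a peak in their windows, WRKY9 had a site within 3000 bp with a mean of 1145 tags under blue light, against 786 under red, nearest to AT1G68140. WRKY22 had one with 566 and 437 tags, nearest to AT4G01245. WRKY59 had one with 127 and 118 tags, for which it was itself the nearest gene. WRKY18 and WRKY12 had sites within 3000 bp in the 3 blue light libraries alone, with means of 169.9 and 154 tags, nearest to AT4G31790 and TPK2.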
